A study of Mus musculus with 9 samples.

Results

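The choroid plexus epithelium and simple keratin genes are 9 genes, Ttr, Enpp2, Kcne2, Folr1, Aqp1, Sostdc1, Clic6, Krt8 and Krt18, of the 27095 loci measured by RNA-seq in the fetal mouse brain. They were picked by gene symbol, and each symbol matched a single locus that carried no other name. The first 6 were chosen as genes known from the choroid plexus. Clic6, Krt8 and Krt18 were chosen by their higher FPKM in EtOH-exposed affected than in control offspring, so that difference describes the choice and is no finding.

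The study asked what separates alcohol-exposed fetuses with structural defects from exposed fetuses and controls without them. All fetuses were wild type mice of the strain C57BL/6, C57BL/6J in the methods, taken on gestational day 17, with 3 offspring in each of 3 groups, namely controls and the EtOH-exposed groups called unaffected and affected. Dams of both exposed groups had received EtOH at 2.9 g/kg, by injection on gestational day 7, and control dams lactated Ringer's solution, and exposed fetuses were sorted by ocular and cortical patterning defects. Fetal brain is the tissue named by the labels and cortex the one named by the methods, and how much choroid plexus each dissection kept is not given. Animals of the affected group were therefore selected on their phenotype, and 1 value per group and locus, taken by the authors' software over the 3 animals, was available. No spread between animals could be computed, no difference below was tested, and a single fetus that stands apart cannot be seen in these values.

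FPKM are fragments scaled to transcript length and to all mapped fragments, so levels can be compared between genes on this scale. Ratios below are log2 ratios of FPKM with 0.1 added, and a locus was counted as higher or lower past the fold when its ratio reached 1.5-fold. Markers of the cortex were high in all groups. The 11 cortex genes on the list, among them Emx1 and Eomes, summed to 995 FPKM in control, 895 FPKM in unaffected and 1157 FPKM in affected offspring, and none was at 0. The median log2 ratio of the 15548 loci with a mean of at least 1 FPKM was 0.02 in affected against control, 0.01 in affected against unaffected and 0.01 in unaffected against control. The affected group enters 2 of these comparisons and the control group 2, so the comparisons share samples and are not independent.

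The choroid plexus is a folded sheet of epithelium that hangs into the brain ventricles and secretes the cerebrospinal fluid. Its cells move ions and water from the blood side to the ventricle, carry hormones and vitamins such as folate across, and release carrier proteins and signalling inhibitors into the fluid. Keratins 8 and 18 are the partner filament proteins of simple, single-layered epithelia: a type II keratin, Krt8, pairs with a type I keratin, Krt18, and neither forms filaments alone. Cortical neurons and their progenitors are built on other intermediate filaments, such as vimentin, nestin and the neurofilaments.

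The keratin pair shares a place in the genome. In the mm10 coordinates of the files, Krt8 lies at chr15:101996711-102004342 and Krt18 at chr15:102028216-102032026, protein-coding genes on opposite strands that start 23874 bases apart with 0 named loci between them. Kcne2, at chr16:92292389-92298133, and Clic6, at chr16:92498147-92541241, lie on the same strand of chromosome 16 with 200014 bases and 6 named loci between them. All 9 loci overlapped the gene of the same name in the GENCODE annotation of this build. RefSeq promoters of build GRCm38.p6 were matched for 4 of the 9 members. Those of Krt8 and Krt18 are shown because both genes were chosen for their level in affected offspring and encode filament partners, and that of Kcne2 because its levels in control and affected offspring were nearly equal. Each line gives the 250 bases before the RefSeq start at which the locus in the files also begins, 5′ to 3′ on the gene's strand, at chr15:102004343-102004592 on the minus strand for Krt8, at chr15:102027966-102028215 on the plus strand for Krt18 and at chr16:92292139-92292388 on the plus strand for Kcne2.
Krt8: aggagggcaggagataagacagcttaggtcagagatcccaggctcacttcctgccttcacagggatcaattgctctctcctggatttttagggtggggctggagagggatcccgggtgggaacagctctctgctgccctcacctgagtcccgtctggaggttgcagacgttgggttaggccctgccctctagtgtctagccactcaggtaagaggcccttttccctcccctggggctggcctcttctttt
Krt18: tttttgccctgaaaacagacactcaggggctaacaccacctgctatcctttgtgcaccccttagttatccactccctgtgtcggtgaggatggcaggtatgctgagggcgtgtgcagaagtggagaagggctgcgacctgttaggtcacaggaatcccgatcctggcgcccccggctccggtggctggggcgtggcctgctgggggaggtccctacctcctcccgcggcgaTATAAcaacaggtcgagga
Kcne2: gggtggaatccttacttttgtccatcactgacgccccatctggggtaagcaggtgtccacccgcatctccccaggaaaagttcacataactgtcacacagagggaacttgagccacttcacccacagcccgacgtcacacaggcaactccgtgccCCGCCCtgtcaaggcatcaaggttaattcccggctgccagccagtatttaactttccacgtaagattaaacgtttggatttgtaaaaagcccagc
Capitals mark a match to 1 of 4 short motifs searched on both strands. These were the TATA-like motif TATAA, the CCAAT box with the letters CCAAT, the GC box with the letters GGGCGG and the AP-1 motif, spelled TGANTCA, where N is any base. The motifs did not overlap in the windows shown. Counting back from the start, with -1 as the base before it, Krt18 held TATAA at -19 to -15, Kcne2 held GGGCGG on the minus strand at -95 to -90, and Krt8 held 0 matches. RefSeq lists another start of Kcne2, 3227 bases downstream, whose window is not shown and held 5 matches to TATAA. Of all 32851 promoter windows of this length, 22.8% held the TATA-like motif, 33.8% the CCAAT box, 32.7% the GC box and 6.75% the AP-1 motif. A match is a description of letters, and its absence says only that these letters are not in the window. The G and C content was 58% for Krt8, 60.4% for Krt18 and 52.4% for Kcne2.

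Ttr encodes transthyretin, the carrier of thyroid hormone and retinol that the choroid plexus secretes into the cerebrospinal fluid. It was by far the most abundant member, with 970 FPKM in control, 1291 FPKM in unaffected and 1077 FPKM in affected offspring, and its mean ranked 139 among all loci. The next member by mean, Enpp2, was at 13.3 FPKM. Ttr was highest in the unaffected group, 1.33-fold above control, with the affected group between them. Its log2 ratio was 0.15 in affected against control, -0.26 in affected against unaffected and 0.41 in unaffected against control.

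Enpp2 encodes autotaxin, the secreted enzyme that makes lysophosphatidic acid. It was at 14.0 FPKM in control, 13.6 FPKM in unaffected and 12.3 FPKM in affected offspring. It was the only member that was lower in unaffected than in control offspring, by a log2 ratio of -0.04, and it was lowest in the affected group at -0.18 against control. Autotaxin is also made by cells of the oligodendrocyte lineage, so its level is not specific to the choroid plexus. The summed level of 9 listed genes of that lineage was 59.0 FPKM in control, 56.5 FPKM in unaffected and 51.7 FPKM in affected offspring, with no gene at 0 in any group. The part of this lineage in the level of Enpp2 was not tested.

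Kcne2 encodes a small subunit of potassium channels that sits in the ventricle-facing membrane of the choroid plexus. It had 10.5 FPKM in control, 14.1 FPKM in unaffected and 10.5 FPKM in affected offspring. The control and affected values were equal to within 0.0118 FPKM, while the unaffected value was 1.34-fold above control. Aqp1, the water channel of the same membrane, was at 6.32, 7.17 and 7.28 FPKM in control, unaffected and affected offspring, so the exposed groups differed from each other by 0.103 FPKM and both stood above control.

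Folr1 encodes folate receptor alpha, which carries folate into the cerebrospinal fluid. It had 9.68 FPKM in control, 11.6 FPKM in unaffected and 10.4 FPKM in affected offspring, with log2 ratios of 0.11 in affected and 0.25 in unaffected offspring against control. Sostdc1, a secreted inhibitor of BMP and Wnt signalling, had 5.16 FPKM in control, 6.95 FPKM in unaffected and 6.65 FPKM in affected offspring. With a log2 ratio of 0.36 it was the member with the greatest excess in affected against control among the 6 that were not chosen for one, and it was again a little higher in the unaffected group.

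Clic6 encodes a chloride intracellular channel protein of secretory epithelia. It had 4.48 FPKM in control, 5.36 FPKM in unaffected and 8.31 FPKM in affected offspring. Its level in affected offspring lay 2.95 FPKM above unaffected offspring, and that of unaffected offspring 0.886 FPKM above control, an order in which the high affected value was part of the choice. In control offspring Clic6 stood at 0.426 of the level of Kcne2, in unaffected offspring at 0.381 and in affected offspring at 0.792. Clic6 was chosen for its level in affected offspring, so the last of these ratios follows from the choice.

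Krt8 had 1.23 FPKM in control, 1.44 FPKM in unaffected and 2.67 FPKM in affected offspring, the lowest level of all members in every group. Krt18 had 2.41 FPKM in control, 2.98 FPKM in unaffected and 5.23 FPKM in affected offspring. Krt18 was 1.96-fold above Krt8 in control, 2.07-fold in unaffected and 1.96-fold in affected offspring. Both were chosen for their higher level in affected than in control offspring, so the likeness of those 2 ratios describes the choice. The annotation holds 1 pseudogene named after Krt8, and how its reads were assigned is not given in the sources used here, so the level of Krt8 is less certain than that of Krt18.

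**Figure D1:**
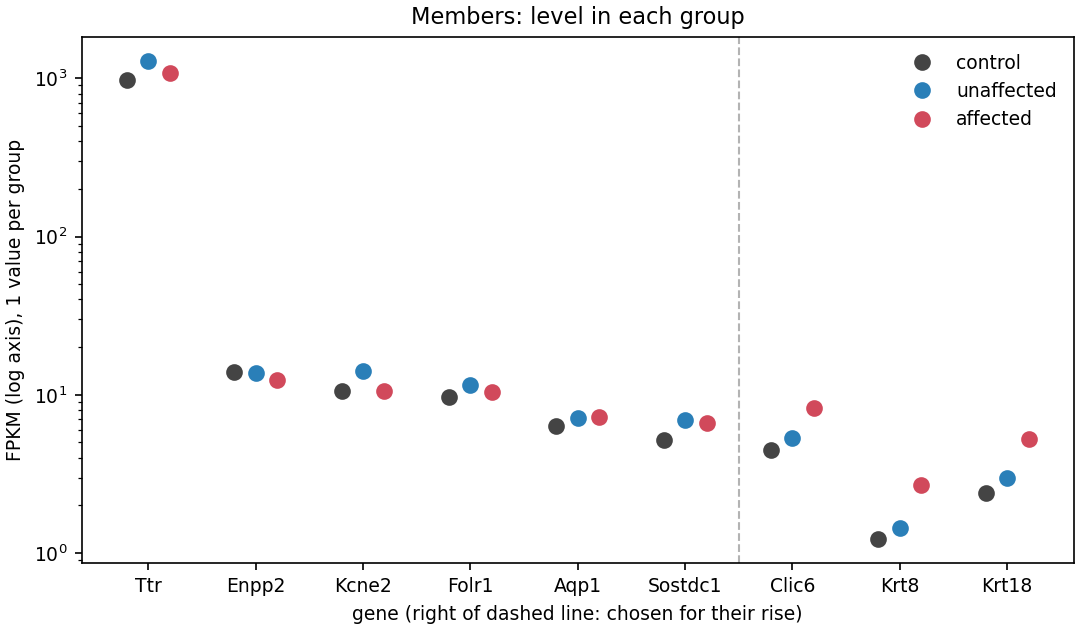
Level of each of the 9 genes in the control group and in the EtOH-exposed unaffected and affected groups. The vertical axis is FPKM on a log scale, each point is the single deposited value of a group over 3 animals, and no error can be drawn. Ttr lies between 970 and 1291 FPKM, and Clic6, Krt8 and Krt18, right of the dashed line, are highest in affected offspring.

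In affected against control offspring, 3 of the 9 members, Clic6, Krt8 and Krt18, were higher past the fold and 0 were lower. This is the contrast that chose those 3, and nothing is read from their count beside the 3.42% of the 15548 loci that were higher and the 3.01% that were lower. Their log2 ratios were 0.88 for Clic6, 1.06 for Krt8 and 1.09 for Krt18. Among the 12666 named loci at this level, ordered by that ratio, they stood at places 54, 49 and 46, and the next member, Sostdc1, at place 748. The 6 members that were not chosen this way had log2 ratios from -0.18 for Enpp2 to 0.36 for Sostdc1, with a median of 0.13, and 4 of them were above 0.

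In affected against unaffected offspring, the same 3 genes were higher past the fold, by log2 ratios of 0.62 for Clic6, 0.85 for Krt8 and 0.79 for Krt18, and 0 members were lower. The affected group is shared with the comparison that chose them. Past this fold were 6.88% of all loci in the higher and 4.91% in the lower direction. Of the other 6 members, 5 were below 0, with a median of -0.15, from -0.42 for Kcne2 to 0.02 for Aqp1. With groups rescaled to a common sum of FPKM, which moved the median of all loci to 0.31, only Kcne2 of these was below 0, at -0.11.

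In unaffected against control offspring, 0 members passed the fold, against 2.46% of all loci higher and 3.08% lower. All members but Enpp2 were nevertheless above 0, that is 8 of 9, with a median log2 ratio of 0.26 against 0.01 over all loci. The control group is shared with the comparison that chose Clic6, Krt8 and Krt18, so these 3 are not free of the choice here either. Of the other 6 members, 5 were above 0, with a median of 0.33. Sostdc1 at 0.42, Kcne2 at 0.42 and Ttr at 0.41 lay above the 95th percentile of all loci, 0.34. The simple keratins and Clic6 lay below it, at 0.21 for Krt8, 0.29 for Krt18 and 0.26 for Clic6. Rescaling each group to the same sum of FPKM moved all loci alike, to a median of -0.32, and the median of the members to -0.074, so the members stood above all loci by 0.25 under either scaling. Which members lie above 0 therefore depends on the scaling, and their place relative to all loci does not. In these bulk samples, fewer cells of a type and less RNA per cell cannot be told apart.

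**Figure D2:**
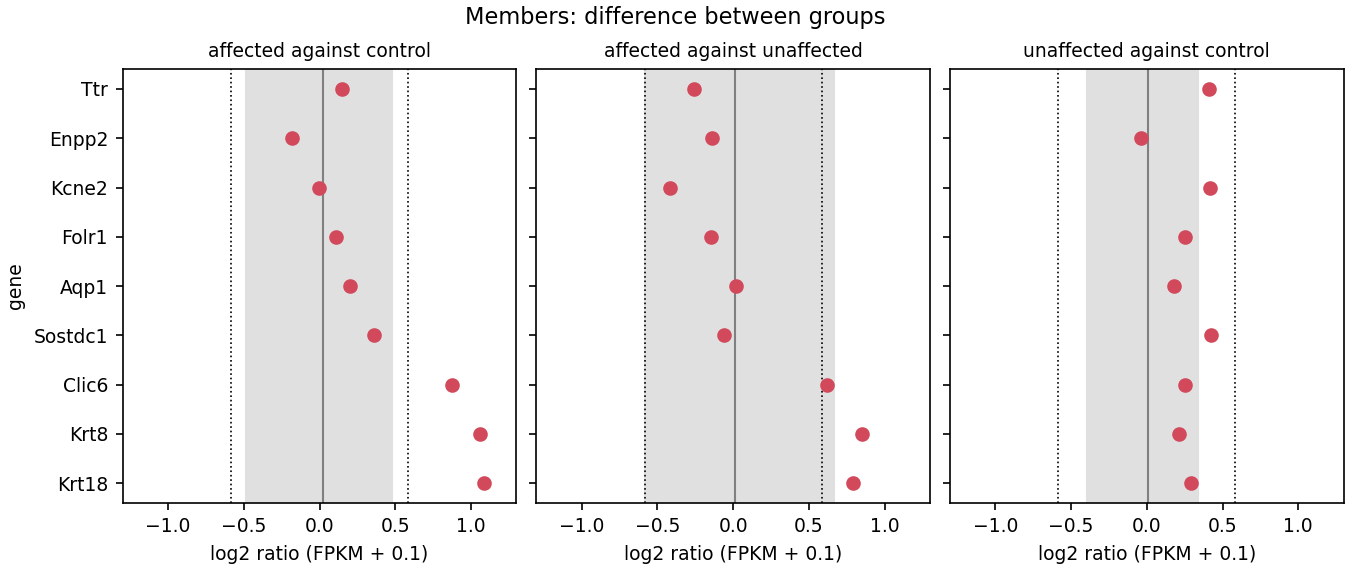
Log2 ratio of each of the 9 genes in the 3 comparisons, computed on FPKM with 0.1 added. Grey bands span the 5th to the 95th percentile of 15548 loci, the grey line is their median and dotted lines mark 1.5-fold. Clic6, Krt8 and Krt18 lie right of the dotted line in both comparisons with the affected group, and 8 of 9 genes lie right of 0 in unaffected against control.

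Other genes known from the choroid plexus were set beside the members. The list was not limited to genes made only there, so its levels do not measure the amount of this tissue. Of 30 further markers, 18 had a mean of at least 1 FPKM, and in affected against control 0 of these were higher and 0 lower past the fold, with a median log2 ratio of 0.12. Otx2, the transcription factor that the choroid plexus needs to form, had 4.42, 5.43 and 5.27 FPKM in control, unaffected and affected offspring. Of the genes named by level, Igfbp2, a secreted binding protein of insulin-like growth factors, had 182, 194 and 169 FPKM, and Slc29a4, a monoamine transporter, had 34.8, 33.0 and 43.2 FPKM. The markers farthest apart were Car12, a carbonic anhydrase, at 0.50, and 1500015O10Rik, which encodes the peptide augurin, at -0.50. Including the rarer markers, 1 of 30, the bicarbonate transporter Slc4a5, was higher past the fold, at 0.543, 0.629 and 1.02 FPKM in control, unaffected and affected offspring, against 3.66% of all 27095 loci without a limit on level. The summed level of the 30 markers was 311, 330 and 308 FPKM in control, unaffected and affected offspring, with no marker at 0, and most of it came from Igfbp2. Without Igfbp2 the other 29 markers summed to 129, 135 and 139 FPKM in the same order. Of the 30 markers, 23 were above 0 in affected against control, with a median log2 ratio of 0.20.

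Genes that carry out the same tasks as the members were counted against the 3.42% of all loci higher and the 3.01% lower past the fold, shares at which lists of this size hold few such genes. Of 9 genes of thyroid hormone and retinol carriage, 6 had a mean of at least 1 FPKM and 0 passed the fold in either direction in affected against control, with a median log2 ratio of 0.04 and the activating deiodinase Dio2 at -0.25. Of 14 genes around lysophosphatidic acid, the product of Enpp2, 9 reached that level and 0 passed, with a median of -0.15. The receptor Lpar2 was at 0.18 and the phosphatase Ppap2c at -0.33. Of 14 genes of folate uptake and use, 13 reached it and 0 passed, with a median of 0.08, methionine synthase Mtr, in a locus joined with another gene, at 0.28 and thymidylate synthase Tyms at -0.16. Of 20 genes of ion and fluid transport, 18 reached it and 0 passed, with a median of 0.09 and the bicarbonate transporter Slc4a10 at -0.33. Of 16 genes that act with Sostdc1, among them its co-receptors and BMP ligands, 14 reached it and 0 passed, with the co-receptor Lrp4 at 0.47 and the BMP target Id3 at -0.50.

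The sequence relatives of the members were read against the 4.58% of all loci with a mean of at least 0.1 FPKM that were higher past the fold in affected against control, a share at which families this small hold few calls. Among the CLIC genes, Clic1 had 50.2, 59.5 and 44.7 FPKM and Clic4 37.8, 40.3 and 45.5 FPKM in control, unaffected and affected offspring. Of the 4 relatives of Clic6 with a mean of at least 0.1 FPKM, 0 passed the fold in affected against control, with log2 ratios from -0.17 to 0.27. The 3 such relatives of Kcne2 also held 0 past the fold, from -0.53 for Kcne3 to -0.01 for Kcne1l. Of the 5 relatives of Aqp1, Aqp3 and Aqp5 were higher past the fold. Aqp3, a channel for water and glycerol of surface epithelia, had 0.0738 FPKM in control, 0.127 FPKM in unaffected and 1.07 FPKM in affected offspring. Aqp5, the water channel of glands, had 0.154, 0.217 and 0.463 FPKM in the same order. A locus this rare reaches the limit of 0.1 FPKM mainly through the group in which it is high, so these counts are descriptions only.

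Further keratins differed in direction. Of 10 further keratin loci with a mean of at least 0.1 FPKM, 3 were higher past the fold in affected against control, Krt7, Krt23 and Krt17, 0 were lower, and the median log2 ratio was -0.18. At that limit 4.58% of all loci were higher past the fold. Krt23 and Krt17 had 0.0676 and 0.0606 FPKM in control and 0.276 and 0.228 FPKM in affected offspring, so both reached the limit through the affected group. The most abundant keratins were those of the upper epidermis, Krt10 at 17.9, 19.6 and 14.4 FPKM and Krt1 at 15.6, 17.1 and 11.6 FPKM in control, unaffected and affected offspring. Both were lowest in the affected group, opposite to Krt8 and Krt18. Among other simple keratins, Krt7 had 0.268, 0.169 and 0.458 FPKM and Krt19 0.723, 0.479 and 0.457 FPKM in control, unaffected and affected offspring, so Krt7 was highest and Krt19 lowest in the affected group. The named loci next to the pair on chromosome 15 were Krt79 and Krt78 on the side of Krt8, with Krt79 at 0.0485 to 0.0549 FPKM and Krt78 at 0 FPKM in control and unaffected offspring, and Eif4b and Tenc1 on the side of Krt18, with log2 ratios of 0.16 and 0.24 in affected against control. Neither Eif4b nor Tenc1 passed the fold.

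Krt8 and Krt18 were next set beside 14 genes listed with keratins, such as plakins and desmosome proteins. The list also holds Krtcap3, a keratinocyte-associated protein that is neither of these. All 14 were above 0 in affected against control, most of them with a mean below 1 FPKM. The share of all loci above 0 was not computed, and the median of loci with a mean of at least 1 FPKM was 0.02. Of the 5 listed genes at that level, 1, Krtcap3, was higher past the fold, against 3.42% of all loci. Krtcap3 had 0.858, 0.884 and 1.34 FPKM in control, unaffected and affected offspring, so it reached the limit of 1 FPKM through the affected group, and its log2 ratio of 0.59 was barely past the fold. Jup, plakoglobin, had 10.5, 9.60 and 13.3 FPKM. Of 13 other intermediate filament genes, 10 reached that level, 0 were higher past the fold and 1, Gfap, was lower, where 3.01% of all loci were lower. Vimentin, Vim, had 245, 255 and 300.4 FPKM and nestin, Nes, 26.8, 27.3 and 36.1 FPKM in control, unaffected and affected offspring, at log2 ratios of 0.29 and 0.43 in affected against control.

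Genes of simple epithelia other than the choroid plexus were higher in affected offspring at low levels. Of 22 such genes, 13 were higher past the fold in affected against control and 0 lower, against 3.66% of all 27095 loci, and 12 were higher in affected against unaffected, against 5.9%. In unaffected against control, 0 were higher and 1 was lower, against 2.51% and 2.85% of all loci. Only 4 of the 22 had a mean of at least 1 FPKM, and of these 0 passed the fold: Spint2 had 21.9, 25.5 and 21.7 FPKM, Perp 3.99, 4.40 and 3.46 FPKM, Cdh1, E-cadherin, 2.09, 1.80 and 2.39 FPKM and Cdh3, P-cadherin, 1.03, 1.05 and 1.57 FPKM in control, unaffected and affected offspring. The rarer genes named next were chosen after their values were seen. Epcam, an adhesion protein found on most simple epithelia, had 0.386 FPKM in control, 0.444 FPKM in unaffected and 1.95 FPKM in affected offspring, and Cldn7, a tight junction protein, had 0.129, 0.0593 and 0.666 FPKM. The excess of affected over control was 1.44 FPKM for Krt8 and 2.82 FPKM for Krt18.

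Genes known from the olfactory and nasal lining were higher in affected offspring as well. Their lists were written after the values had been seen, so their counts are descriptions. Of 18 genes of its supporting cells and glands, 12 were higher past the fold in affected against control and 1 was lower, against 3.66% and 3.09% of all 27095 loci. In the affected group 5 were at 0, among them the defining gland genes Obp1a, Obp2a, Muc5b and Muc5ac. The summed level was 1.37 FPKM in control, 1.01 FPKM in unaffected and 23.0 FPKM in affected offspring. Cbr2, a carbonyl reductase, had 0.641, 0.444 and 6.49 FPKM, the joined locus of the glucuronosyltransferases Ugt2a1 and Ugt2a2 had 0.139, 0.00980 and 5.73 FPKM, and the olfactory cytochrome Cyp2g1 had 0.0151, 0.0139 and 2.19 FPKM.

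Of 13 genes of olfactory sensory neurons, 7 were higher past the fold in affected against control and 0 lower, against 3.66% of all 27095 loci, and none was at 0 in any group. Of the 3 with a mean of at least 1 FPKM, 0 passed it. Their summed level, most of it from Gnal, which brain neurons also use and which lay in a locus joined with another gene, was 57.4, 54.6 and 66.1 FPKM in control, unaffected and affected offspring. Omp, the olfactory marker protein, had 0.0964, 0.0926 and 1.01 FPKM. Of all 1086 loci named as olfactory receptors, 1048 were at 0 in control, the same number in unaffected offspring and 708 in the affected group, and 364 were higher in affected than in control against 31 that were lower. Their summed level was 3.42, 3.15 and 9.87 FPKM. Of the 5 receptor loci with a mean of at least 0.1 FPKM, 0 passed the fold in affected against control, with a median log2 ratio of -0.09. The number of loci at 0 also depends on depth, which is unknown. Many olfactory and nasal genes were higher in the group in which Krt8, Krt18 and Clic6 were higher, and their part in the levels of Krt8, Krt18 and Clic6 was not tested. With 1 value per group it also cannot be seen whether all 3 affected animals or fewer carried these transcripts.

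**Figure D3:**
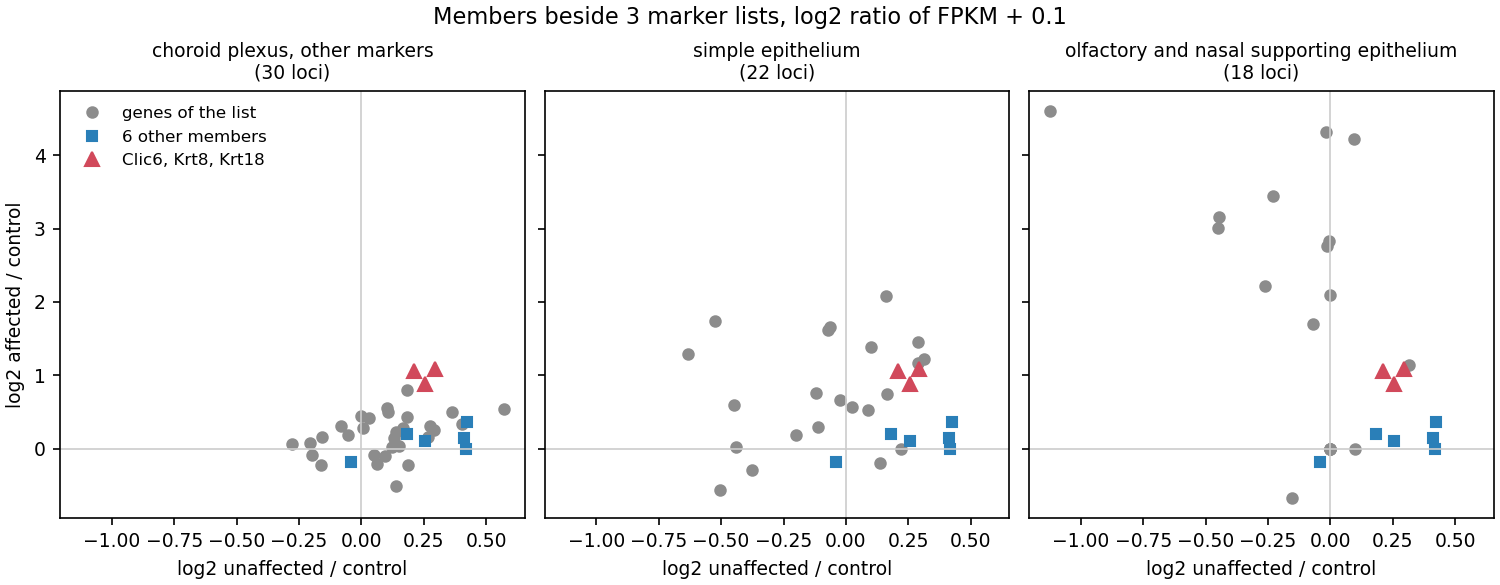
Log2 ratio in affected against control (vertical axis) and in unaffected against control (horizontal axis) for 3 lists of genes in grey, beside the 6 members not chosen for a rise (blue squares) and Clic6, Krt8 and Krt18 (red triangles), on FPKM with 0.1 added. Higher past 1.5-fold in affected against control lie 1 of the 30 other choroid plexus markers, 13 of the 22 simple epithelium genes and 12 of the 18 genes of the olfactory and nasal lining. Of all 27095 loci, 3.66% were higher past this fold.

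**Figure D4:**
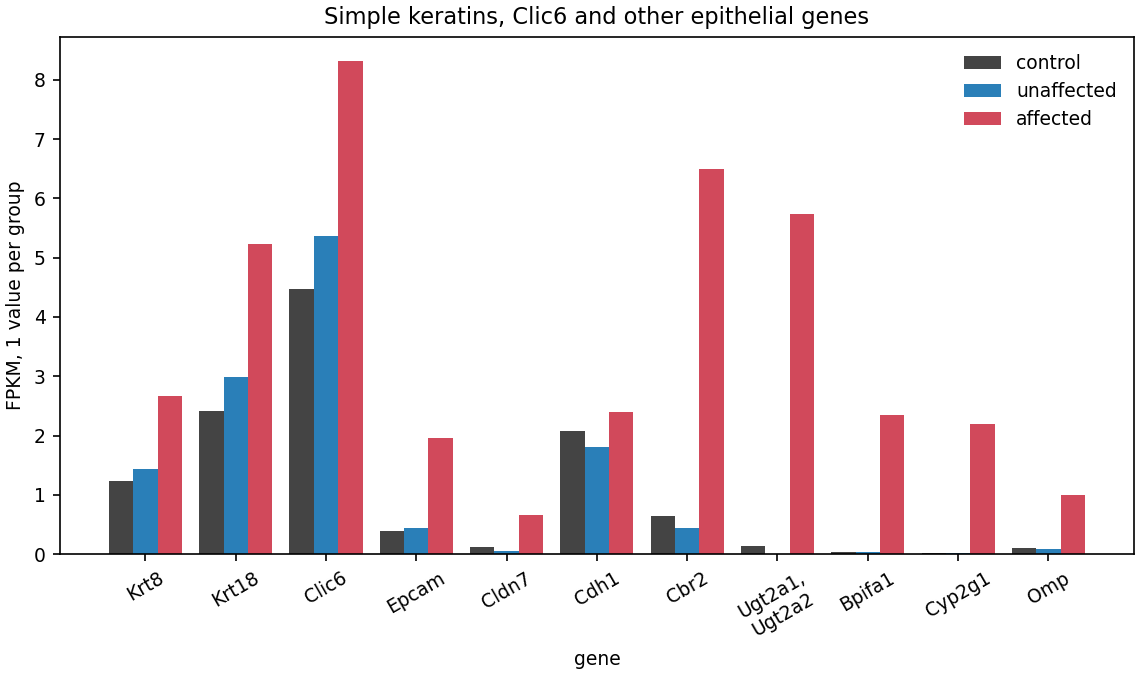
FPKM of Krt8, Krt18, Clic6 and 8 other epithelial or olfactory genes, chosen after their values were seen, in the 3 groups. Bars start at 0 and each shows the single deposited value of a group over 3 animals, with no error available. Cbr2, the joined locus of Ugt2a1 and Ugt2a2, Bpifa1, Cyp2g1 and Omp lie at or below 0.641 FPKM in control and unaffected offspring and between 1.01 and 6.49 FPKM in affected offspring, and Krt8, Krt18 and Clic6 lie at or above 1.23 FPKM in all groups.

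The loci most like the keratin pair and most like the 6 members not chosen for a rise were found by distance in the plane of the ratios of both exposed groups to control, over 3 group values. Nearest to the mean of Krt8 and Krt18 were Galm at a distance of 0.066, Slc27a2 at 0.20, Nhlh1 at 0.25, Papss2 at 0.28 and Snord34 at 0.31, in log2 units. Galm, a sugar mutarotase, had 0.933 FPKM in control, 1.15 FPKM in unaffected and 2.17 FPKM in affected offspring. Nearest to the median of the 6 members not chosen for a rise were Fanci, Adck4, Rsg1, Gpn2 and Rmi2, at distances of 0.03 or less.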

How the data were processed

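Total RNA of 9 fetal mouse brain or cortex samples, 3 per group, was sequenced by RNA-seq. The labels name Bowtie2 2.2.4.0, Cufflinks and Cuffdiff and the mm10 genome, and the methods name Bowtie with TopHat and the Cufflinks suite but also STAR, with no version of these given in the sources used here. The deposited FPKM were made by the authors with 1 value per group and locus over its 3 animals. The table has 0 columns of single animals, so depth per sample is unknown, and no interval, replicate error or test was computed. Columns with the authors' fold changes, test statistics, p-values and q-values were not used. Because the software's filters on multi-mapping reads are not stated, levels of genes with copies are uncertain, and joined loci hold several genes.

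Group FPKM were read with Python 3.11.15, pandas 2.3.3 and numpy 2.4.6, and plots were drawn with matplotlib 3.10.9. Log2 ratios used FPKM + 0.1. A locus was called at 1.5-fold among loci with a mean of at least 1 FPKM, and rare lists were also counted over all loci. The step that makes the calls was checked on artificial data only. How often a call is wrong in these animals was not tested. Members and gene lists were chosen with earlier results of these data known, and 2 olfactory lists were added after the values were seen. Named genes are the members, the up to 3 genes of highest mean FPKM of a list and its largest rise and fall in affected against control, the 5 loci nearest in pattern, and the loci next to Krt8 and Krt18, while Otx2, Slc4a5, Krt19 and all other genes named in the text were chosen after their values were seen, and some genes under this rule are not reported here. Promoters came from RefSeq for build GRCm38.p6. Alternatives varied the scaling, the pseudocount, the limit on level and the fold.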

Additional observations from a re-analysis of the deposited data

How the results depend on the processing

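Over 9 alternative settings, 218 of 237 values of single members kept their sign and their side of the fold, and 9, none of them past the fold, changed sign, all with a common sum of FPKM. With that scaling, the median of the members was 0.24 in affected against unaffected and -0.074 in unaffected against control, because it moved the median of all loci to 0.31 and -0.32. The sum rests on few loci, since the 8 highest, none of which has a gene name, held 44.9% of it in the control, 52.5% in the unaffected and 49.3% in the affected group. With a limit of 5 FPKM, which leaves out Krt8 and Krt18, 1 member was higher past the fold in affected against control and 1 in affected against unaffected. Of the 9703 loci at this limit, 1.38% and 4.49% were higher in these comparisons. At the laxer fold that was tried, 3 members were higher in unaffected against control, beside 5.45% of all loci. At that fold 1 member was lower in affected against unaffected, beside 18.1% of all loci. At 2-fold, 0 members were higher in affected against unaffected, beside 1.83% of all loci. In affected against control 2 were higher at 2-fold, beside 1.18% of all loci, and Clic6 fell below it. Clic6 also fell below 1.5-fold in affected against unaffected with a pseudocount of 1, at 0.55.

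No paired analysis was possible because the table holds 1 value per group, and for the same reason leaving out animals was not possible. The depth and the spread between animals are unknown, so none of the differences has an error.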

Other observations

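Markers of blood and of the coverings of the brain were also measured. All 8 red cell loci were higher in unaffected than in control offspring and lower in affected than in unaffected offspring, with a summed level of 457, 597 and 372 FPKM in control, unaffected and affected offspring. Ttr, Kcne2, Folr1 and Sostdc1 were likewise highest in the unaffected group, and the part of blood in their levels was not tested. Of 14 genes of the meninges, 1 was lower past the fold in affected against control, where 3.01% of all loci were, the prostaglandin synthase Ptgds, which the choroid plexus also makes, at 167, 132 and 82.6 FPKM in control, unaffected and affected offspring.

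Genes of the roof plate and cortical hem, the midline tissue from which the choroid plexus forms, were listed as well. Of 15 genes, 8 had a mean of at least 1 FPKM and 0 of these were higher past the fold in affected against control, where 3.42% of all loci were, while Rspo1, a secreted amplifier of Wnt signals, was the gene higher past it in unaffected against control, at 1.03, 1.62 and 1.38 FPKM in control, unaffected and affected offspring. Over all 15 genes the log2 ratio in affected against control ran from -0.26 to 0.57, with a median of 0.11. Of 15 genes of ciliated epithelium, Foxj1, the master regulator of motile cilia, had 5.45, 6.62 and 6.79 FPKM in the same order. Among genes with a mean of at least 1 FPKM, 7 of ciliated epithelium, 3 of stratified epithelium, 2 of the pigment epithelium of the eye and 9 of endothelium, 0 passed the fold in affected against control, beside 3.42% of all loci higher and 3.01% lower, and such short lists hold few calls at these shares. Without that limit, 2 of the 15 ciliated genes were lower and 1 of 14 stratified genes, Krt17, was higher, beside 3.09% and 3.66% of all 27095 loci.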
